A study of Mus musculus with 20 samples.

Results

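The 39 protein-coding Hox genes of clusters A to D, out of 55421 genes in the deposited tables, were described in the mouse aorta by name: every gene called Hox, a cluster letter and a number, with the protein-coding biotype, was taken, whatever its counts. Cluster A holds 11 of them, cluster B 10, cluster C 9 and cluster D 9. On GRCm38 they lie on chromosome 6 from 52155590 to 52260880 (A), chromosome 11 from 96194316 to 96368256 (B), chromosome 15 from 102921103 to 103036852 (C) and chromosome 2 from 74668310 to 74765142 (D). Whole aortas of C57BL/6 mice were sequenced, 20 libraries in 4 groups of 5. The groups were Pparafl/fl mice, which carry a conditional Ppara allele, at 2 and at 28 months, and mice labelled as lacking Ppara in smooth muscle cells, called the knockout here, at the same ages. The source of Cre is not given in the sources used here, nor whether control animals carried one. The design asks how the aorta differs by age in each genotype and by genotype at each age.

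Hox genes encode homeodomain transcription factors that give body segments their identity along the head-to-tail axis. Within a cluster the genes are numbered by paralogue group in the order in which they stand on the chromosome, and low-numbered genes are switched on earlier and further forward in the embryo than high-numbered ones. Cells of mesodermal and neural crest origin keep much of this pattern in the adult, and vascular smooth muscle and fibroblasts of different stretches of the aorta are known to differ in their Hox genes. A sample that spans several of these stretches pools them, so its Hox profile is a sum over positions.

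Total counts lay between 50046288 and 79385413 per library. Genes that mark smooth muscle were present in all libraries, and their summed level per length had a median of 1920 RPKM (counts per kilobase of exon per 1e6 scaled counts) in Pparafl/fl at 2 months and 228 RPKM in Pparafl/fl at 28 months. The corresponding knockout medians were 484 and 155 RPKM. At an edgeR adjusted p under 0.05, 10 of 12 smooth muscle markers fell and 1 (Des) rose with age in Pparafl/fl, and 4 fell in the knockout. The marker counts that follow use the same calls. Over all genes tested for age, 4.54% were called in Pparafl/fl and 4.46% in the knockout. Of 14 fibroblast markers 8 fell in Pparafl/fl and 7 in the knockout. Fat markers were abundant: the adipocyte list summed to medians of 6330.0 and 2730.0 RPKM in young and aged Pparafl/fl and 6590.0 and 4400.0 RPKM in the knockout, with 1 and 3 of 12 fallen with age. Brown adipocyte markers summed to 3060.0 and 555 RPKM in Pparafl/fl and 2380.0 and 795 RPKM in the knockout, with 2 and 4 of the 11 tested fallen. Of 12 airway epithelium markers 9 were tested for age in Pparafl/fl, where 6 rose, and 11 in the knockout, where 3 rose. Scgb1a1, a secretory protein of airway cells, exceeded 1 CPM (counts per 1e6 scaled counts) in 9 libraries, 8 of them aged. Of the cardiomyocyte markers 4 of 12 tested rose with age in Pparafl/fl and 0 of 11 in the knockout. Their sums had medians of 349 and 185 RPKM in young and aged Pparafl/fl and 502 and 199 RPKM in the knockout. Of the endothelium markers 0 were called for age in either genotype. In bulk tissue, fewer cells of a type and less RNA per cell cannot be told apart. Ppara itself had medians of 150.0 and 108 CPM at 2 months in Pparafl/fl and the knockout and 71.4 and 72.6 CPM at 28 months. Its log2 fold change between genotypes was -0.33 at 2 months (edgeR adjusted p = 0.664) and 0.11 at 28 months (edgeR adjusted p = 1.0). The deleted exons are not given in the sources used here, so a gene count need not show the deletion.

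The aorta libraries held RNA from most Hox genes, up to paralogue group 10 and hardly beyond. They also held RNA of the fat, airway and cardiomyocyte markers given above. Which of these tissues the Hox RNA came from was not tested. With at least 10 counts in each of the 20 libraries there were 16 genes: Hoxa3, Hoxa4, Hoxa5, Hoxa7, Hoxa9, Hoxa10, Hoxb3, Hoxb4, Hoxb6, Hoxc4, Hoxc6, Hoxc9, Hoxc10, Hoxd3, Hoxd4 and Hoxd9. A further 13, among them Hoxa2, Hoxa6, Hoxb2, Hoxb7, Hoxc5, Hoxc8 and Hoxd8, reached 10 counts in 10 to 19 libraries. Hoxa11, Hoxb1, Hoxb13, Hoxc11, Hoxc13, Hoxd1, Hoxd11 and Hoxd13, 8 genes, did so in fewer than 10 libraries. Hoxc12 and Hoxd12, 2 genes, had 0 counts in every library. By region class, 10 of 12 anterior genes (groups 1 to 4), 11 of 11 central genes (5 to 8) and 8 of 16 posterior genes (9 to 13) reached 10 counts in at least 10 libraries. A single library held counts from between 27 and 33 of the 39 genes.

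**Figure D1:**
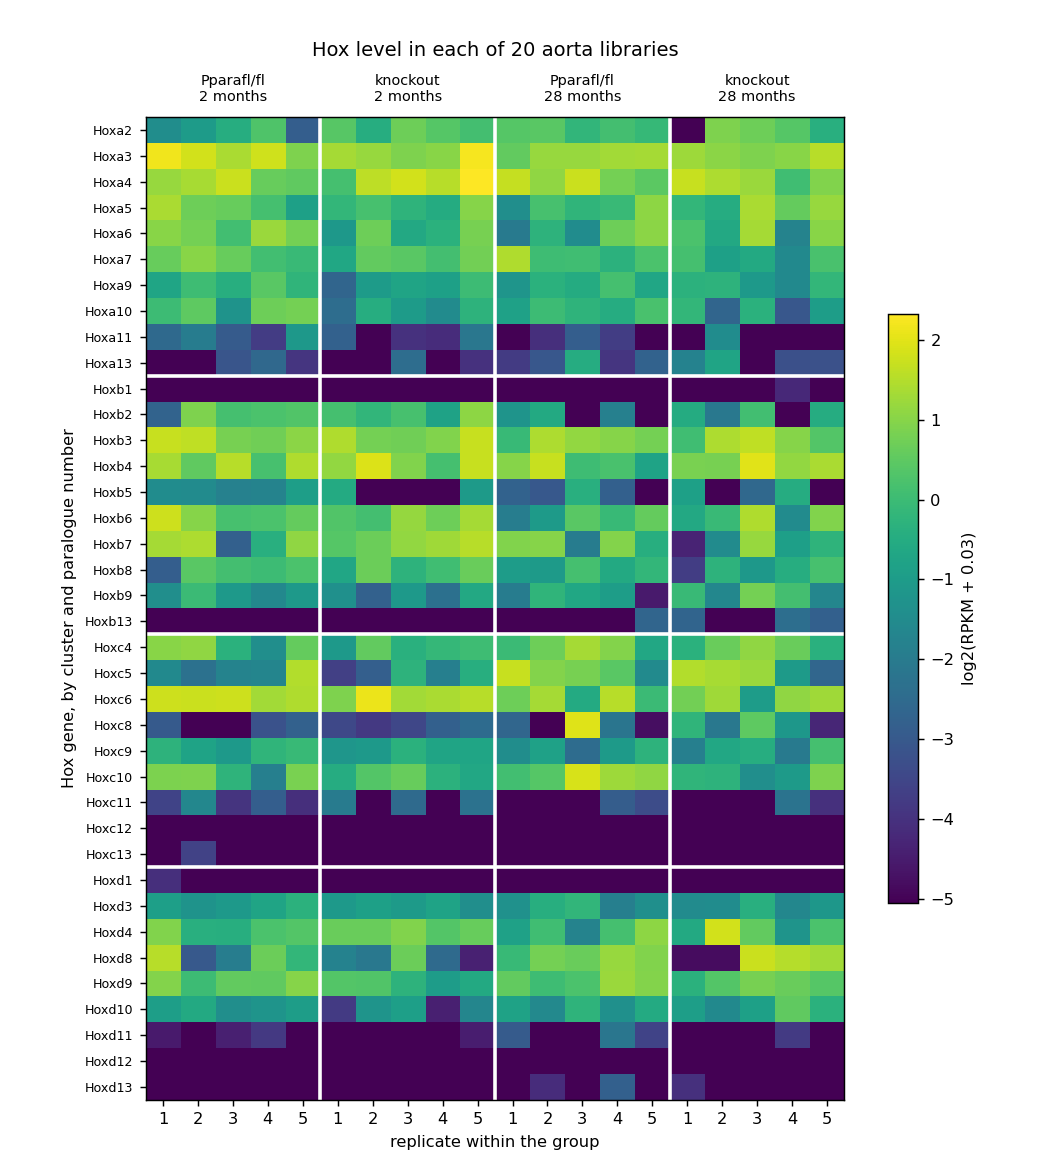
Level of 38 Hox genes (rows, by cluster and paralogue number) in each of 20 libraries (columns, by group and replicate), as log2(RPKM + 0.03). Rows numbered 3 to 10 are mostly filled, with gaps in Hoxb5, Hoxc8 and Hoxd8, while rows numbered 11 to 13, Hoxb1 and Hoxd1 are low or empty.

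Summed over clusters and averaged over the 20 libraries, the level per length was 1.72 RPKM for group 2. It was 5.15 RPKM for group 3, 7.15 RPKM for group 4, 2.67 RPKM for group 5 and 5.03 RPKM for group 6. Genes numbered 3, 4 and 6 were 6 of the 8 most abundant, with Hoxb7 and Hoxd9 as the others. Groups 7, 8, 9 and 10 summed to 2.62, 2.46, 3.11 and 2.54 RPKM. The levels of the last groups were 0.189 RPKM for group 11, 0 for group 12 and 0.158 RPKM for group 13. The drop came between groups 10 and 11 in clusters A, C and D, and cluster B has no gene numbered 10 to 12.

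**Figure D2:**
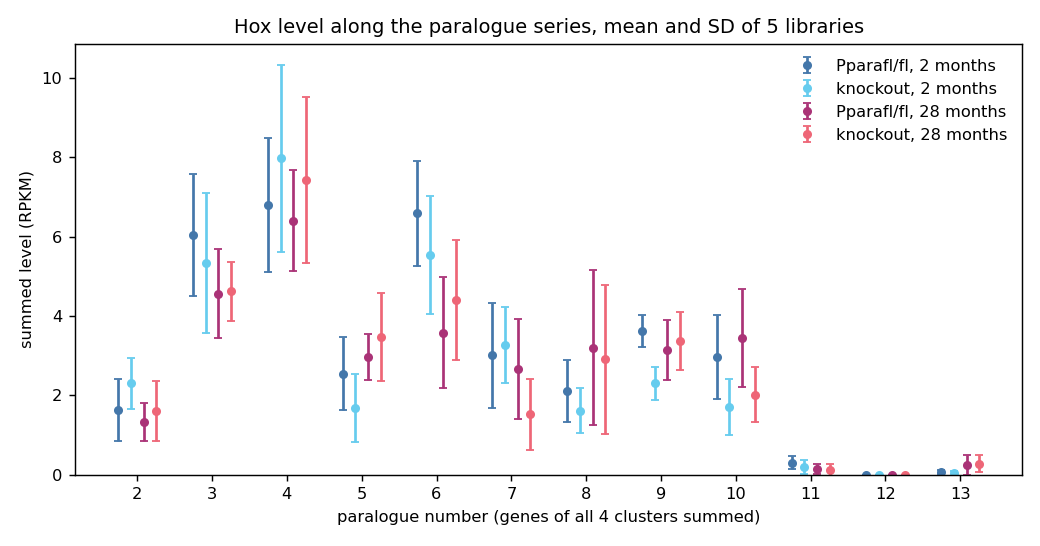
Summed level (RPKM) of the Hox genes of paralogue numbers 2 to 13, with points for the mean and bars for the SD of 5 libraries in each group of mice. The level peaks at group 4 (7.15 RPKM over all libraries), has a second high point at group 6 and is near 0 from group 11 on in every group of mice.

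The most abundant Hox genes were in the middle of the range of protein-coding genes. Hoxa3 averaged 2.56 ± 0.859 RPKM (SD, n = 20), at percentile 51.6 of 21816 protein-coding genes, Hoxa4 2.46 ± 1.0 RPKM and Hoxc6 2.34 ± 0.948 RPKM. Hoxb4 averaged 2.15 ± 0.973 RPKM, Hoxb3 2.11 ± 0.718 RPKM, Hoxb7 1.45 ± 0.937 RPKM, Hoxb6 1.42 ± 0.824 RPKM and Hoxd9 1.32 ± 0.476 RPKM. Neighbours in this order differ by less than the SD between libraries, and Hoxc10, ninth in the order, stood at 1.3 RPKM against 1.32 RPKM for Hoxd9. The order also differed between groups. In each aged group 5 of these 8 genes were among its own 8 most abundant. Hoxc5 and Hoxd8 were in that set in both aged groups and Hoxc10 ranked 3 in aged Pparafl/fl, while Hoxb6 ranked 17 and 12 and Hoxb7 11 and 18 in aged Pparafl/fl and the aged knockout. The gene length used also bears on the order: with the longest transcript in place of all exons, Hoxa3 stayed first at 5.93 RPKM and Hoxc6 came second at 3.56 RPKM, while Hoxd9 took rank 11.

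Of the anterior genes, Hoxa3, needed in the mouse for organs of the third pharyngeal arch such as the thymus, read 4.48, 3.52, 2.57, 3.44 and 1.85 RPKM in the 5 Pparafl/fl libraries and 2.51, 2.25, 1.82, 2.0 and 4.67 RPKM in the 5 knockout libraries at 2 months. At 28 months it read 1.44, 2.26, 2.27, 2.44 and 2.51 RPKM in Pparafl/fl and 2.34, 2.04, 1.84, 1.99 and 2.89 RPKM in the knockout. The groups overlapped, with 1 young knockout library well above the others of its group. With age, Hoxa3 had a log2 fold change of -0.5 (95% interval -1.07 to 0.07, edgeR adjusted p = 0.278) in Pparafl/fl and -0.25 (95% interval -0.86 to 0.36, edgeR adjusted p = 0.641) in the knockout, neither past the threshold.

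Hoxa4, which takes part in setting the identity of neck vertebrae, read 2.23, 2.53, 3.34, 1.5 and 1.4 RPKM in Pparafl/fl and 1.09, 3.02, 3.51, 2.85 and 5.0 RPKM in the knockout at 2 months. The aged values were 3.18, 2.1, 3.29, 1.68 and 1.35 RPKM in Pparafl/fl and 3.27, 2.64, 2.31, 1.01 and 1.88 RPKM in the knockout. The highest and the lowest of the young libraries were both knockouts. Its log2 fold changes in the 4 comparisons lay between -0.48 and 0.52, and the 95% interval for the genotypes at 2 months ran from -0.33 to 1.37.

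Hoxb3, a gene of the hindbrain and pharyngeal arches, read 3.25, 3.05, 1.74, 1.63 and 2.04 RPKM in Pparafl/fl and 2.68, 1.69, 1.64, 1.86 and 3.26 RPKM in the knockout at 2 months. With age it read 0.917, 2.65, 2.17, 1.97 and 1.7 RPKM in Pparafl/fl and 1.01, 2.66, 3.07, 1.96 and 1.25 RPKM in the knockout. The groups overlapped, and the lowest libraries of both aged groups were below all young ones. Antisense Hoxb3os overlaps 52.9% of its exon bases, and since the strand setting of the counting is not given in the sources used here, the 2 genes' reads may be mixed.

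Hoxb4, known for expanding blood stem cells when raised in them, read 2.52, 1.41, 2.87, 1.1 and 2.7 RPKM in Pparafl/fl and 2.18, 3.82, 1.88, 1.07 and 3.26 RPKM in the young knockout. At 28 months the values were 1.95, 3.26, 1.0, 1.13 and 0.555 RPKM in Pparafl/fl and 1.76, 1.72, 4.0, 2.16 and 2.6 RPKM in the knockout. Aged Pparafl/fl held the lowest single value, but the groups overlapped. Between the genotypes at 28 months its log2 fold change was 0.63 (95% interval -0.41 to 1.67, edgeR adjusted p = 1).

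Of the central genes, Hoxc6, a gene of the upper thorax and forelimb level, read 3.37, 3.28, 3.4, 2.43 and 2.7 RPKM in Pparafl/fl and 1.85, 4.26, 2.43, 2.59 and 2.86 RPKM in the knockout at 2 months. Aged libraries read 1.61, 2.5, 0.656, 2.87 and 0.957 RPKM in Pparafl/fl and 1.65, 2.39, 0.48, 2.12 and 2.39 RPKM in the knockout. In each genotype the aged libraries reached lower than any young one, and others lay among the young. For age it had a log2 fold change of -0.8 (standard error 0.38, 95% interval -1.64 to 0.03, edgeR adjusted p = 0.238) in Pparafl/fl and -0.62 (95% interval -1.54 to 0.29, edgeR adjusted p = 0.409) in the knockout.

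Hoxb6, a gene of the thoracic trunk, read 3.39, 1.96, 1.11, 1.14 and 1.48 RPKM in Pparafl/fl and 1.21, 1.05, 2.2, 1.59 and 2.51 RPKM in the knockout at 2 months. The later values were 0.235, 0.458, 1.32, 0.91 and 1.46 RPKM in Pparafl/fl and 0.63, 0.938, 2.72, 0.325 and 1.87 RPKM in the knockout. The 6 lowest values all came from aged libraries, and other aged libraries lay among the young. The age difference in Pparafl/fl was -1 on the log2 scale (95% interval -2.18 to 0.18, edgeR adjusted p = 0.293).

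Hoxb7, its neighbour in the cluster and also a trunk gene, had a within-group coefficient of variation of 60.9%, against 55.9% for Hoxb6. It read 2.5, 2.63, 0.114, 0.722 and 2.14 RPKM in Pparafl/fl and 1.28, 1.55, 2.16, 2.41 and 2.86 RPKM in the young knockout. At 28 months it read 1.89, 1.97, 0.23, 1.9 and 0.718 RPKM in Pparafl/fl and 0.0198, 0.324, 2.27, 0.513 and 0.804 RPKM in the knockout. Single libraries of 3 groups stood near 0 while others of the same groups stood near 2 RPKM. The age difference in the knockout, -1.39 on the log2 scale, had a 95% interval from -3.19 to 0.42.

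Of the posterior genes, Hoxd9, a gene of the lower trunk and limbs, had a within-group coefficient of variation of 31.8%, the lowest of the 31 Hox genes tested over all libraries. It read 1.9, 0.984, 1.45, 1.4 and 1.95 RPKM in Pparafl/fl and 1.26, 1.22, 0.796, 0.479 and 0.646 RPKM in the knockout at 2 months. Aged animals read 1.45, 0.989, 1.15, 2.29 and 1.93 RPKM in Pparafl/fl and 0.758, 1.26, 1.72, 1.53 and 1.27 RPKM in the knockout. In young animals 4 of 5 Pparafl/fl libraries were above all knockout libraries.

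**Figure D3:**
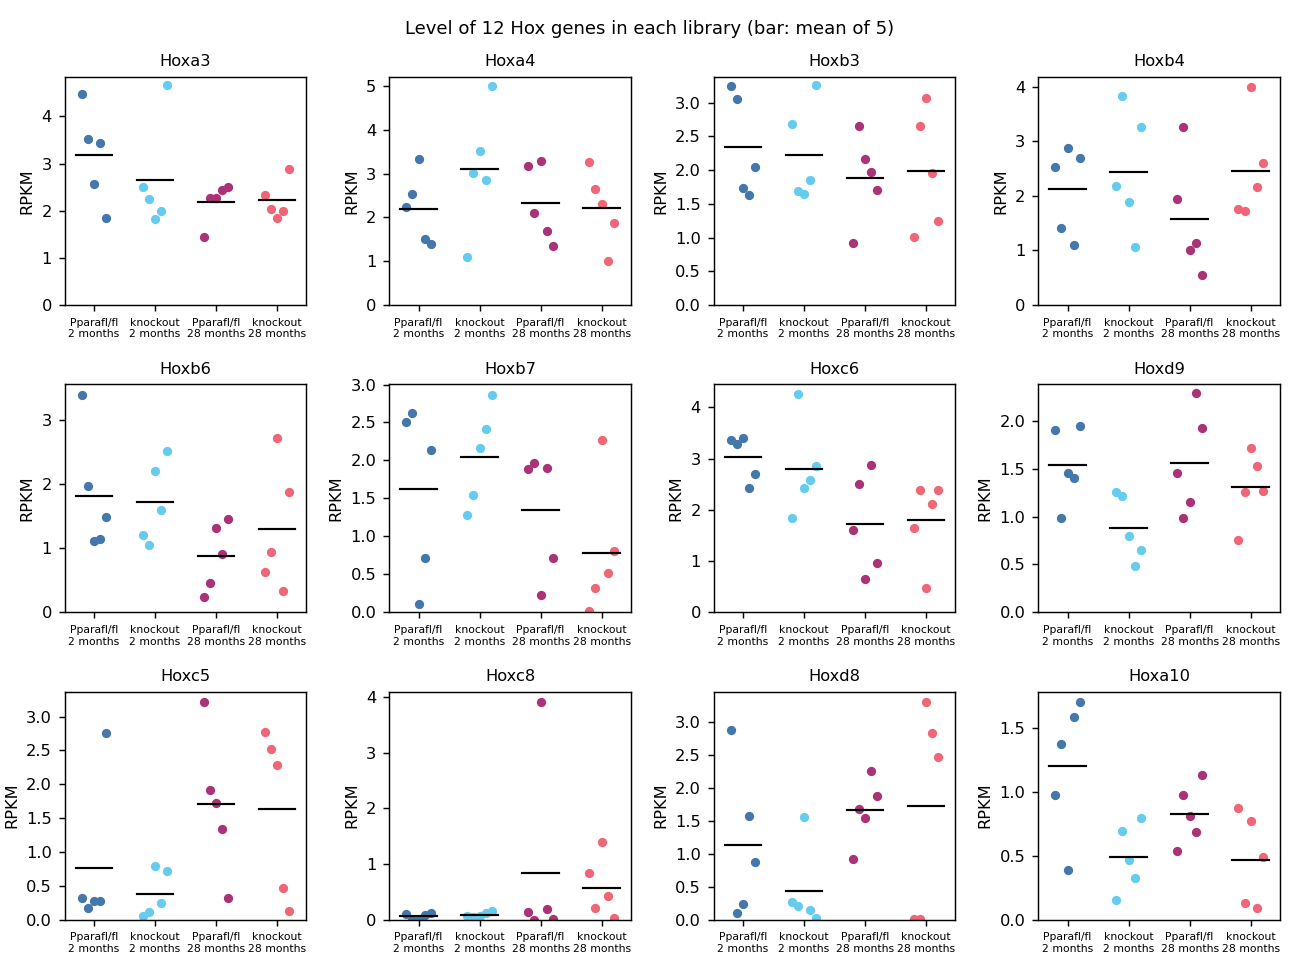
Level (RPKM) of 12 Hox genes in each library, with points for libraries and black bars for the mean of 5. The first 8 panels are the most abundant genes, and Hoxc5, Hoxc8, Hoxd8 and Hoxa10 were added after their values were seen; groups overlap in all 12 panels, and Hoxc8 rises above 1 RPKM in 2 aged libraries.

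Some genes were counted very unevenly within groups. Hoxd8 had 575, 16, 36, 252 and 160 counts in Pparafl/fl and 38, 29, 232, 26 and 3 in the knockout at 2 months. The aged counts were 121, 266, 322, 349 and 293 in Pparafl/fl and 1, 1, 632, 702 and 424 in the knockout. Thus aged knockout aortas held both the highest and the lowest counts of the gene, and Hoxd9, the next gene in the cluster, was at 0.758 and 1.26 RPKM in the libraries with 1 count of Hoxd8. Hoxb2, a hindbrain gene, had 0 counts in 3 aged libraries and up to 447 in others, and Hoxb5 had 0 counts in 6 libraries and up to 174 in others. For the 31 Hox genes tested over all libraries the median within-group coefficient of variation was 54.7% (31.8% to 230.0%), where counting alone would give 8.03%. It was 58.6% for the 13249 tested genes with mean counts in the same range, so the unevenness is near that of other genes counted alike.

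The posterior end was nearly empty, with a few exceptions. Hoxa11, a gene of the middle limb and the uterus, reached 66 counts in 1 young Pparafl/fl library and had 0 counts in 7 libraries. Hoxa13, which patterns hand, foot and genital tissue, had 128 counts in 1 aged Pparafl/fl library and 90 in 1 aged knockout library, and at most 21 in each young library. Hoxb13, a gene of the tail and prostate, had 16 counts in 1 aged Pparafl/fl library and 18, 32 and 16 counts in 3 aged knockout libraries, with 0 in all 10 young ones. Hoxd13, the most posterior gene of its cluster, had 25 counts in all, Hoxc13 had 8, Hoxb1 5 and Hoxd1 4. The counts of these last 4 genes came from 3, 1, 1 and 1 libraries.

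Promoter sequences are shown for Hoxb4 and Hoxd9, genes counted in all libraries, and for Hoxd1 and Hoxd12, which had few or no counts although they share cluster D with Hoxd9. The 250 bases before each start site come from RefSeq on GRCm38.p6, where 22 of the 39 genes matched. Hoxb4 is given for chr11:96318017-96318266, Hoxd9 for chr2:74697513-74697762, Hoxd1 for chr2:74762730-74762979 and Hoxd12 for chr2:74674763-74675012, all on the plus strand and 5′ to 3′. Capitals mark CG dinucleotides.
Hoxb4: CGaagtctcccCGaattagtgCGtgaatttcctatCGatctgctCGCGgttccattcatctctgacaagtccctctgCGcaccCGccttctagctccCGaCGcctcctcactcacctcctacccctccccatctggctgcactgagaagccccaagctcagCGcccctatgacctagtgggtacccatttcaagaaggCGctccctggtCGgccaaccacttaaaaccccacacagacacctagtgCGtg
Hoxd9: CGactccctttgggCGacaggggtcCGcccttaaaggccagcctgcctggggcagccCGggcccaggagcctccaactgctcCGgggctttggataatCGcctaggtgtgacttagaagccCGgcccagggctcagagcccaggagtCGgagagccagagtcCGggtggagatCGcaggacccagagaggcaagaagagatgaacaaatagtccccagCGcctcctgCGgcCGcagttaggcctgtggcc
Hoxd1: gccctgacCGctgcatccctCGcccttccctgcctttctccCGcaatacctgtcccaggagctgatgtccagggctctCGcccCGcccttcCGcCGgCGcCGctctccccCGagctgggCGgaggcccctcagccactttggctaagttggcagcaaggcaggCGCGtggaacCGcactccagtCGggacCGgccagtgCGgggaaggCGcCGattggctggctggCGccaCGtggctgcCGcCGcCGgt
Hoxd12: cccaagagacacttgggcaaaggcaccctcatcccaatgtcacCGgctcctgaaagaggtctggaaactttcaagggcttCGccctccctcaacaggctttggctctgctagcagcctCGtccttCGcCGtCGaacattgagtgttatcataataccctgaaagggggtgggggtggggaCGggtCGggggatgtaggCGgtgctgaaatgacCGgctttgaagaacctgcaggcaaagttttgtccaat

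Genes with few or no counts also had CG dinucleotides in these windows. Hoxd1, with 4 counts in all, had 24 CG dinucleotides and 71.6% G or C, Hoxd9 had 13 and 65.2%, Hoxb4 14 and 58.0%, and Hoxd12, with 0 counts, 10 and 55.6%. Over the 24 Hox windows the median was 12.5 CG dinucleotides and 58.6% G or C, against 6 and 52.4% over all 32851 windows of the table. The observed-to-expected CG ratio had a median of 0.69 for the 16 matched genes with 10 counts in at least 10 libraries, 0.76 for the 6 other Hox genes and 0.37 for all windows. The letters TATAAA, searched on both strands, occurred in 16.7% of Hox windows and 12.4% of all windows. They were not found in the 4 windows printed.

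Medians of the summed smooth muscle and fat markers, given above, were lower at 28 months in both genotypes. The summed Hox level differed little between groups. In young animals it was 29.9 to 44.0 RPKM (median 36.8) in Pparafl/fl and 25.5 to 43.7 RPKM (median 33.2) in the knockout. In aged animals it was 28.2 to 36.7 RPKM (median 33.5) in Pparafl/fl and 26.6 to 44.2 RPKM (median 31.8) in the knockout. All 4 ranges overlapped. Anterior genes made up 44.1 ± 6.01% of the sum (SD, n = 20), central genes 37.9 ± 3.69% and posterior genes 18.0 ± 4.31%.

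The division by class was examined between the genotypes of young animals. Posterior genes made up 16.1, 20.3, 16.2, 20.6 and 23.3% of the summed level in young Pparafl/fl libraries and 13.3, 13.5, 16.2, 10.9 and 11.3% in young knockout libraries. Anterior genes made up 40.6, 41.2, 48.8, 41.2 and 36.2% in the former and 56.0, 48.6, 45.4, 49.0 and 51.0% in the latter. The posterior share of 4 knockout libraries lay below all Pparafl/fl libraries, and the anterior share overlapped through 1 library of Pparafl/fl. In aged animals the posterior share was 16.6 to 25.7% in Pparafl/fl and 14.1 to 20.9% in the knockout, and the ranges overlapped. Summed smooth muscle markers ran from 1070.0 to 2630.0 RPKM (median 1920) in young Pparafl/fl. In the young knockout they ran from 321 to 3270.0 RPKM (median 484). Between these groups edgeR called 0 of the 12 markers and 0.00485% of all genes. The part of the markers in the result was not tested. The shares were chosen for description after earlier results of these data were known and carry no test.

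**Figure D4:**
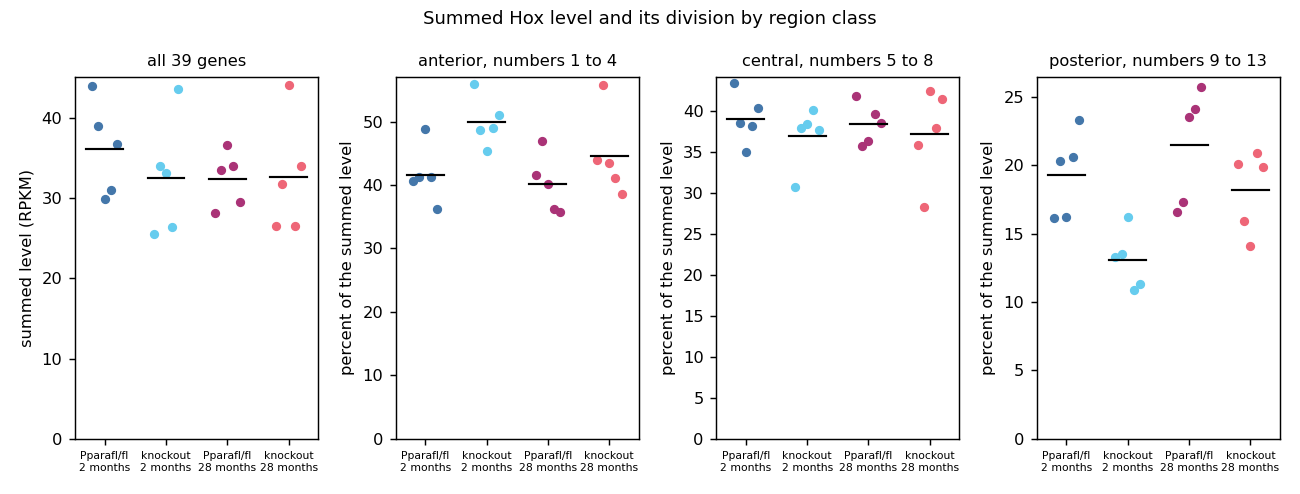
Summed level of all 39 Hox genes (RPKM, left) and the percent of that sum in anterior, central and posterior genes, with points for libraries and bars for the mean of 5. Young knockout libraries have posterior shares of 10.9 to 16.2%, against 16.1 to 23.3% in young Pparafl/fl libraries.

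The rank order of the 39 levels was positively correlated in every pair of libraries, to a varying degree. Spearman's rho between the profiles of 2 libraries had a median of 0.81 (0.56 to 0.94) over 40 pairs of the same group and 0.76 (0.48 to 0.92) over 150 pairs of different groups. These are correlations across genes, which share libraries and are no independent replicates. The 39 include genes at or near 0 in most libraries, and the correlation without them was not computed. By cluster, A held a mean of 36.1% of the summed level, B 28.2%, C 21.2% and D 14.6%. Cluster B made up 23.4 to 34.5% in young Pparafl/fl, 30.7 to 39.3% in the young knockout, 18.4 to 31.0% in aged Pparafl/fl and 21.5 to 34.8% in the aged knockout.

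With age in Pparafl/fl, no Hox gene passed edgeR's two-sided quasi-likelihood test at a Benjamini-Hochberg adjusted p under 0.05. Of the 39 genes 30 passed the filter on low counts and were tested, 0 were called by edgeR or by DESeq2, and 0 had an unadjusted p under 0.05 in edgeR. Over all 20989 genes tested edgeR called 4.54%, and 22.8% had an unadjusted p under 0.05, while DESeq2 called 13.6% of 24445 genes. The median log2 fold change was -0.22 over the Hox genes tested and 0.06 over all genes tested, with 11 genes positive and 19 negative; scaled by library totals alone, which moves all genes upward, 14 were positive and 16 negative. All 8 tested genes of cluster B were negative, from -2.06 to -0.15, except that Hoxb9 was at 0.04 with library totals alone, and 4 of 6 in cluster C were positive with either scaling. The 95% interval reached more than 2-fold to either side of the estimate for 19 genes, so differences of that size could not be seen for them. No Hox gene had groups that did not overlap, against 9.14% of all genes tested.

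In the knockout, 29 Hox genes were tested for age and 0 were called by edgeR, against 4.46% of the 20950 genes tested. An unadjusted p under 0.05 was found for 2, Hoxc8 and Hoxc5, both higher at 28 months, against 22.9% of all genes. The median log2 fold change was 0.01, with 15 genes positive and 14 negative, or 20 and 9 with library totals alone. By class the medians were -0.14 for 10 anterior, 0.31 for 11 central and 0.42 for 8 posterior genes, and with library totals alone 0.07, 0.55 and 0.62. DESeq2 called 1 of 35 Hox genes, Hoxc8 (log2 fold change 2.77, adjusted p = 0.0132), against 14.1% of the 24438 genes it tested. No Hox gene had groups that did not overlap, against 8.57% of all genes.

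Hoxc8, which sets the identity of the lower rib cage and of forelimb motor neurons, had 20, 0, 0, 13 and 22 counts in Pparafl/fl and 9, 6, 9, 21 and 26 in young knockouts. At 28 months it had 18, 0, 840, 30 and 1 counts in Pparafl/fl and 154, 37, 276, 109 and 4 in the knockout. In the aged knockout 4 of 5 libraries were above all young ones, and in aged Pparafl/fl 1 library held nearly all counts. The log2 fold change with age was 2.75 (standard error 0.87, 95% interval 0.82 to 4.69, unadjusted p = 0.0097, edgeR adjusted p = 0.0966) in the knockout. Without aged knockout replicate 5, the library with 4 counts, it was 3.07 and passed the test (edgeR adjusted p = 0.0341). Leaving out any other single library gave edgeR adjusted p-values from 0.105 to 0.191. In Pparafl/fl the log2 fold change was 3.97 (95% interval -0.13 to 8.06, edgeR adjusted p = 0.233), and 0.47 without aged Pparafl/fl replicate 3.

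Hoxc5, an upper trunk gene of the same cluster, had 70, 33, 47, 50 and 572 counts in Pparafl/fl and 8, 18, 133, 48 and 136 in the knockout at 2 months. The aged counts were 474, 343, 404, 234 and 56 in Pparafl/fl and 561, 499, 496, 129 and 26 in the knockout. Most aged libraries were above most young ones, and 1 young Pparafl/fl library, at 2.76 RPKM, was close to the highest aged ones at 3.21 and 2.77 RPKM. The log2 fold change with age was 2.09 (standard error 0.92, 95% interval 0.05 to 4.14, unadjusted p = 0.0455, edgeR adjusted p = 0.209) in the knockout. In Pparafl/fl it was 1.2 (95% interval -0.69 to 3.09, edgeR adjusted p = 0.431), and 2.75 without young Pparafl/fl replicate 5 (edgeR adjusted p = 0.0516). There, leaving out any other single library gave edgeR adjusted p-values from 0.347 to 0.612.

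Airway RNA varied between the aged libraries. Scgb1a1 read 27.9, 419, 668, 33.1 and 0.123 CPM in aged Pparafl/fl libraries and 315, 187, 404, 441 and 0.175 CPM in aged knockout libraries, in the same order as the counts above. Replicate 5 of either aged group, the library below 1 CPM of Scgb1a1, had the lowest Hoxc5 count of its group, and 1 and 4 counts of Hoxc8. Aged Pparafl/fl replicate 2 with 419 CPM of Scgb1a1 had 0 counts of Hoxc8, and replicate 1 with 27.9 CPM had the most Hoxc5 of its group. Among young libraries, Pparafl/fl replicate 5 with 0.179 CPM had 572 counts of Hoxc5 and knockout replicate 1 with 19.7 CPM had 8. Leaving out the 9 libraries above 1 CPM leaves replicate 5 as the only aged library of each genotype, so the sign is then set by the counts just given. The log2 fold changes were then -3.11 and -1.99 for Hoxc8 and -1.27 and -1.81 for Hoxc5 in Pparafl/fl and the knockout, none past the test. Summed airway markers had medians of 67.6 and 300.0 RPKM in young and aged Pparafl/fl libraries and 102 and 2830.0 RPKM in the knockout, and their part in these differences was not tested. Skeletal muscle markers summed to medians of 39.2 RPKM in young and 2870.0 RPKM in aged Pparafl/fl libraries, and to 288 and 579 RPKM in the knockout.

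Between the genotypes at 2 months, 30 Hox genes were tested and 0 were called by edgeR or by DESeq2. Of all 20598 genes tested edgeR called 0.00485%, which is 1 gene, and DESeq2 called 1.94% of 23334. An unadjusted p under 0.05 was found for 2 Hox genes, Hoxa10 and Hoxd9, both lower in the knockout, against 10.1% of all genes. The median log2 fold change was -0.21 over the Hox genes and 0.01 over all genes, with 10 positive and 20 negative. Posterior genes were lower in the knockout for 8 of 9 tested (median -0.72), central genes for 8 of 11 (median -0.16) and anterior genes for 4 of 10 (median 0.16), and these counts were the same with library totals alone. No Hox gene had groups that did not overlap, against 2.55% of all genes.

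Hoxa10, which patterns lumbar vertebrae and the uterus, read 0.971, 1.37, 0.389, 1.58 and 1.7 RPKM in Pparafl/fl and 0.156, 0.693, 0.469, 0.327 and 0.794 RPKM in the knockout at 2 months. All but 1 of the Pparafl/fl libraries were above all knockout libraries. The log2 fold change was -1.28 (standard error 0.49, 95% interval -2.38 to -0.19, unadjusted p = 0.0262, edgeR adjusted p = 0.441). For Hoxd9, given above, it was -0.77 (standard error 0.32, 95% interval -1.49 to -0.05, unadjusted p = 0.0377, edgeR adjusted p = 0.474). Neither was past the threshold after adjustment. Both estimates kept their sign in every alternative run for this comparison, but these runs reuse the same libraries. With 1 library left out, the unadjusted p in edgeR reached 0.0566 for Hoxa10 and 0.0829 for Hoxd9.

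At 28 months, 29 Hox genes were tested between the genotypes and 0 were called by edgeR or by DESeq2, while edgeR called 0% of all 21468 genes it tested and DESeq2 0.839% of 26824. An unadjusted p under 0.05 was found for 1, Hoxc10, against 3.21% of all genes. Hoxc10, a gene of the hindlimb level, read 1.04, 1.28, 3.67, 2.34 and 2.11 RPKM in aged Pparafl/fl and 0.832, 0.785, 0.344, 0.461 and 1.83 RPKM in the aged knockout. A single knockout library reached into the range of Pparafl/fl. The log2 fold change was -1.35 (standard error 0.54, 95% interval -2.53 to -0.16, unadjusted p = 0.0292, edgeR adjusted p = 1). It was -0.19 without the libraries above 1 CPM of Scgb1a1, which leaves 1 library in each aged group. The median over the Hox genes was 0, and no gene had groups that did not overlap, against 0.573% of all genes.

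**Figure D5:**
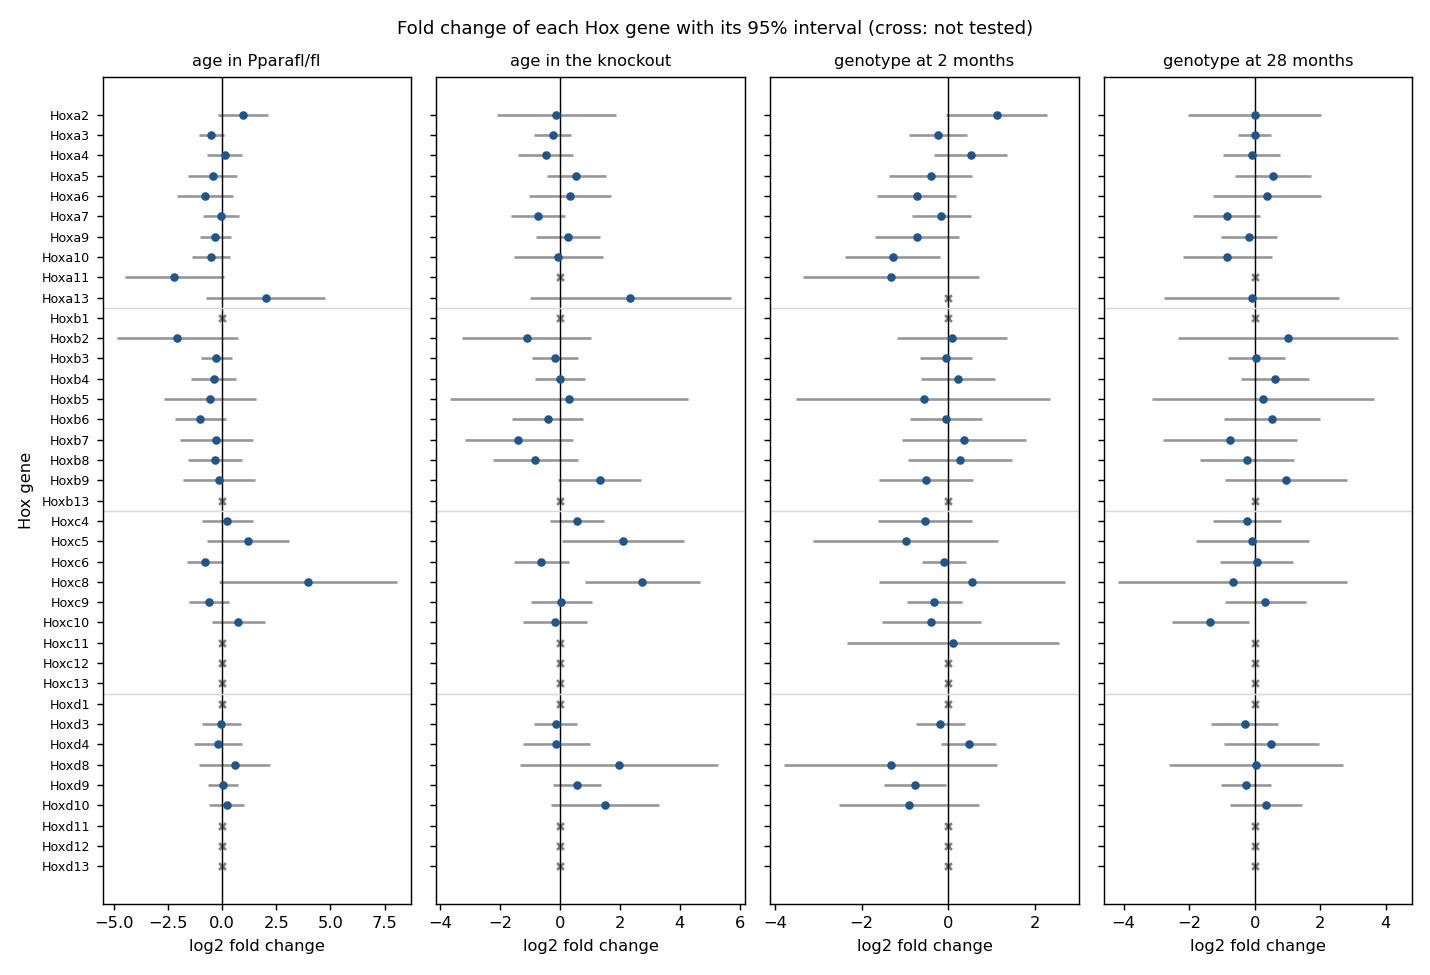
Log2 fold change of 38 Hox genes (28 against 2 months, or knockout against Pparafl/fl) with its 95% interval from edgeR in 4 comparisons, each panel with its own scale; crosses at 0 mark genes not tested. Intervals cover 0 for all genes drawn but Hoxc8 and Hoxc5 (age in the knockout), Hoxa10 and Hoxd9 (genotype at 2 months) and Hoxc10 (genotype at 28 months), none of which passed after adjustment.

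Whether age acted differently in the 2 genotypes was tested as an interaction over all 20 libraries. Of 31 Hox genes tested edgeR called 0, and 0 had an unadjusted p under 0.05. Over 23624 genes edgeR called 0%, and 6.06% had an unadjusted p under 0.05. DESeq2 called 0 of 37 Hox genes and 1.86% of 27730 genes. The difference of the log2 age effects, knockout minus Pparafl/fl, had a median of 0.37 over the Hox genes and 0 over all genes, with 22 positive and 9 negative. Of 10 posterior genes 9 were positive. The smallest adjusted p was 0.918, for Hoxb9, and 29 intervals reached more than 2-fold to either side, so this comparison could see only large differences in Hox genes.

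Genes that work with or upstream of Hox genes were examined from lists, chosen with earlier results of these data known. TALE homeobox proteins bind DNA beside Hox proteins. All 9 were tested in every comparison and edgeR called 0. Over all genes it called 4.54% for age in Pparafl/fl, 4.46% for age in the knockout and at most 0.00485% in the other comparisons. The summed medians were 29.3, 28.9, 27.4 and 30.8 RPKM in young Pparafl/fl, young knockout, aged Pparafl/fl and aged knockout libraries. Pbx2 was among the most abundant of them, and its log2 fold changes with age were -0.34 in Pparafl/fl (edgeR adjusted p = 0.463) and -0.2 in the knockout (edgeR adjusted p = 0.623).

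Polycomb and Trithorax proteins keep Hox genes off or on through chromatin marks. Of 24 such genes tested, 1 was called in all comparisons together: Ring1, a ubiquitin ligase of the Polycomb repressive complex, fell with age in the knockout by 0.94 on the log2 scale (standard error 0.19, edgeR adjusted p = 0.0272). That share of the list is near the 4.46% of all genes called in that comparison. Kmt2a, a histone methyltransferase that maintains Hox expression, had a log2 fold change with age of -0.11 in Pparafl/fl, and Kat6a, a histone acetyltransferase, one of 0.06. Their adjusted p-values in edgeR were 0.697 and 0.89.

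Retinoic acid is an upstream signal of anterior Hox genes in the embryo. Of 21 genes for it and for the Cdx factors, 16 were tested for age. In Pparafl/fl edgeR called 1 up and 1 down, against 4.54% of all genes. In the knockout it called 1 up and 0 down, against 4.46%. The median log2 fold change of the listed genes tested was -0.36 in Pparafl/fl and -0.46 in the knockout. In Pparafl/fl, Cyp26b1, which breaks retinoic acid down, rose by 1.31 on the log2 scale (standard error 0.28, edgeR adjusted p = 0.0279). In the knockout, Aldh1a1, an enzyme that makes retinoic acid, rose by 2.26 (standard error 0.43, edgeR adjusted p = 0.0239). Between genotypes edgeR called 0.00485% of all genes at 2 months and 0% at 28 months, and 0 of the listed genes. These genes are made in several cell types, and the fall of smooth muscle and fibroblast markers and the rise of airway markers with age go beside them; their part in the result was not tested.

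Noncoding RNAs lie between the Hox genes, many of them antisense. Of 19 listed, 17 were in the tables and 7 or fewer were tested in a comparison, with 0 called by edgeR. Over all genes the largest share called in a comparison was 4.54%. Hoxd3os1 and Hoxb5os were the most abundant per length, and with age in Pparafl/fl their log2 fold changes were 0.33 (edgeR adjusted p = 0.659) and -1.13 (edgeR adjusted p = 0.261). Other transcription factors that mark regions of trunk mesoderm and limb did include called genes. Of 38, 31 were tested for age in Pparafl/fl, where 4 were called, Tbx15, Pitx1 and Prrx2 among them, against 4.54% of all genes. Tbx15, a T-box factor of trunk mesoderm and skeletal muscle, rose by 3.42 (standard error 0.62, edgeR adjusted p = 0.0154), and Prrx2, a homeobox factor of mesenchyme, fell by 2.57 (standard error 0.53, edgeR adjusted p = 0.0252) on the log2 scale. Summed skeletal muscle markers were higher in the same aged libraries, as given above, with 2 of 14 called up, and their part in the result was not tested. In the knockout 0 of 29 were called with age, against 4.46% of all genes. The difference between genotypes was tested as an interaction, where edgeR called 0 of 35 and 0% of all genes.

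Of the 39 Hox genes 16 share exon bases with another annotated gene. For Hoxb3, Hoxd3 and Hoxd4 the shared part is 52.9, 62.8 and 52.3% of their exon bases, so their levels are uncertain. Hoxd3 and Hoxd4 overlap the gene Gm28230 on the same strand, where reads of either gene cannot be assigned with certainty. Their levels of 0.481 and 1.27 RPKM are to be read with that limit. Hoxc5 and Hoxc10 share 166 exon bases with each other on the same strand, 5.4% and 8.7% of their exon bases.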

How the data were processed

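RNA-seq counts per gene were deposited by the authors in 4 tables, 1 per pair of groups. Per the submitters' processing notes, HISAT, featureCounts 1.5.0-p3, DESeq 1.8.3 and GRCm38 were used. Per the labels, libraries were made with a stranded kit, and 1 extraction note names islets, while each sample is labelled aorta. Counts were joined over 55421 genes, of which 55154 (99.5%) had an exon length in GENCODE M21. Levels are TMM-scaled CPM, divided by the union of exons for RPKM.

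The 2 groups of a comparison were fitted without the others in edgeR 4.0.16 (R 4.3.3) with TMM, filterByExpr and the two-sided quasi-likelihood test, adjusted by Benjamini-Hochberg over all genes tested; the interaction came from a fit of 20 libraries. A standard error is the log2 fold change over the root of F. Libraries come from separately named animals, and p-values measure the spread between them. DESeq2 1.42.0, other scalings, filters and libraries left out were alternatives.

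Members and gene lists were chosen with earlier results of these data known. Values in every library were given for the 8 genes highest per length, for called genes and for the highest gene of each cluster and class; from other lists up to 3 called genes or the 2 most abundant were named. Hoxc8, Hoxc5, Hoxd8, Hoxa10, Hoxc10 and the sparse genes were chosen after their values were seen. Total counts of 50046288 to 79385413 do not set the precision, since replicates vary more than counting does. Some withheld genes are left out of the text and figures.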

Additional observations from a re-analysis of the deposited data

Results flagged for a closer look

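The 8 most abundant Hox genes were examined in the 4 groups of 5 libraries, 32 sets of values in all, for a highest or lowest library far from the others. Chance flags about 1 in 20 such sets, and 2 were found, both for Hoxa3. In the knockout at 2 months, replicate 5 read 28.1 CPM, while the others of its group read 10.9 to 15.1 CPM. In Pparafl/fl at 28 months, replicate 1 read 8.65 CPM, while the others read 13.6 to 15.1 CPM. Without the first, the log2 fold change of Hoxa3 with age in the knockout was 0.05 in place of -0.25.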

How the results depend on the processing

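The count of Hox genes called was 0 in 91 of 94 alternatives. For age in Pparafl/fl it was 1 without the libraries above 1 CPM of Scgb1a1: Hoxb5 (edgeR adjusted p = 0.0419), where the aged side is a single library with 0 counts, so that the fold has no meaning and the p rests on the spread of the young libraries; over its alternatives the adjusted p ran from 0.0419 to 0.882. For age in the knockout it was 1 with the DESeq2 Wald test and 1 without aged knockout replicate 5, Hoxc8 both times; leaving out 1 library at a time gave 0 to 1 calls. DESeq2 gave no p for Hoxc8 and Hoxb5 in the age comparison of Pparafl/fl. Of 752 alternative fold changes of the 8 most abundant genes, 703 kept their sign and 49 changed it while uncalled. Library totals without TMM moved the median log2 age difference of all genes to 0.206 in Pparafl/fl and 0.247 in the knockout, from 0.055 and 0.057, and that of the Hox genes tested to -0.07 and 0.22. The class shares moved by less than 1 SD between libraries under other scaling, with the longest transcript, and, in alternatives added after the data were seen, without each library or without those above 1 CPM of Scgb1a1. For the genotypes at 28 months that last setting left 1 library in each group and was fitted with all 4 groups, the lone libraries being assumed to vary like the others. No paired analysis was possible because replicate numbers were given in accession order and animals are not shared between groups. Depth was not the limit for abundant genes; spread between replicates was.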
